A study of Mus musculus with 8 samples.

Results

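The complement components and receptors measured here were 9 genes, namely C1qa, C1qb, C1qc, C1ra, C3, C3ar1, C5ar1, Cfb and Serping1. They were the genes on a fixed list whose probe carried the name of a RefSeq transcript, and each was read from its brightest probe among those well above background on at least 4 arrays. They made up 9 of the 15152 genes that had such a probe. RNA came from the ventricles of male C57BL\6 mice 24 hours after surgery. In 4 mice the anterior interventricular artery had been tied off permanently (MI), and 4 mice had a sham operation. All 8 were adult mice of the derivation group, anesthetized with isoflurane, and all were given acipimox and a labelled glucose tracer for a PET exam of the heart before they were killed. The methods describe no separation of infarcted from spared muscle, so that each sample holds tissue of the ventricles as a whole. One array per mouse was hybridized, with all 8 on 1 slide.

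Complement is a cascade of plasma proteins that marks damaged cells and microbes and calls in leukocytes. The classical pathway starts when C1q, built from the chains of C1qa, C1qb and C1qc, binds a surface and activates the proteases C1r and C1s, which are held in check by the C1 inhibitor encoded by Serping1. The lectin pathway starts from soluble lectins, and the alternative pathway amplifies the response through factor B (Cfb) on deposited C3. Cleavage of C3 and C5 releases the small peptides C3a and C5a, which act through the receptors C3ar1 and C5ar1 on myeloid cells. The liver makes most circulating complement proteins, whereas C1q is made mainly by macrophages and related cells of the tissues.

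All 9 genes are known in the GRCm38.p6 annotation, in which C1qb, C1qc and C1qa follow each other on chromosome 4, C1ra lies between C1rl and C1s1 on chromosome 6, C5ar1 lies beside C5ar2 on chromosome 7 and Cfb lies beside C2 on chromosome 17. RefSeq promoter sequence (GRCm38.p6) was used for 6 of the 9 genes, all but C1qa, Cfb and Serping1. The 250 bases before the start are shown for the receptors, whose RNA was higher after MI, and for the adjacent C1q chains, whose RNA varied together among mice. Capitals mark matches to any of 5 motifs searched on both strands, which were a STAT site (TTCNNNGAA), a PU box (GAGGAA), an AP-1 site (TGANTCA), the interferon-stimulated response element and the NF-kB site. No matches overlapped in these sequences.
C3ar1, minus strand of chr6:122856158-122856407: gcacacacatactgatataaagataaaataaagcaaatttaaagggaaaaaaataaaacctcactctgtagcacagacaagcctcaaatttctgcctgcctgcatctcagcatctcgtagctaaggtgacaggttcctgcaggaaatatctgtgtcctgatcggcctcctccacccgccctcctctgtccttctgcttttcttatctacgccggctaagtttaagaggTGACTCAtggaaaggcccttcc
C5ar1, minus strand of chr7:16259339-16259588: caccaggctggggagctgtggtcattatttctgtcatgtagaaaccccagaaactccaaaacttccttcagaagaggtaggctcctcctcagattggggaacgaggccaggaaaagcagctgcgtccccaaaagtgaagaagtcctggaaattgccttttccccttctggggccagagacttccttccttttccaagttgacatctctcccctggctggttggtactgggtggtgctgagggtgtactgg
C1qb, minus strand of chr4:136886201-136886450: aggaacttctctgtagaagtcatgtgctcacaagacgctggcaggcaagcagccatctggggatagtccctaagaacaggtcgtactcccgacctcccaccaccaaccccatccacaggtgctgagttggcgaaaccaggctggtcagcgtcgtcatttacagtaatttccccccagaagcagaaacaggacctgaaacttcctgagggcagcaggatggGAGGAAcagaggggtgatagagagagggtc
C1qc, minus strand of chr4:136892915-136893164: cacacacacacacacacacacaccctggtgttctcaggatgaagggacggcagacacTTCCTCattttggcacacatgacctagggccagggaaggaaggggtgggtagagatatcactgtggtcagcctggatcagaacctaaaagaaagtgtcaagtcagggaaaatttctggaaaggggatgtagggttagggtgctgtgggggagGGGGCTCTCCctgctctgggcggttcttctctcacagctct
The 2 receptor promoters shared none of the 5 motifs. C3ar1 held an AP-1 match, which starts 22 bases before the start of the gene and reads as the motif on both strands. C5ar1 held none of the 5. Both C1q promoters held a PU box match, 30 bases before the start in C1qb and, on the other strand, 193 bases before it in C1qc, and C1qc also held an NF-kB match 41 bases before its start. The promoters of C1ra and C3, which are not shown, held none of the 5 motifs, so that 2 of the 6 promoters had a PU box match. Over all 32851 promoters of the same length, 23.3% held a PU box match, 6.75% an AP-1 match, 3.9% an NF-kB match, 7.02% a STAT match and 2.98% a match to the interferon element. These are matches of letters only.

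Values are log2 intensities on the spike-in scale of the study, and a change is the mean of the MI mice minus that of the sham-operated mice. On each array 58.6% to 66.4% of spots exceeded background, and every probe of the 9 genes was above background on all 8 arrays. Over all 34038 retained probes the median change was 0.12, whereas it was -0.01 when each array was instead divided by its 75th percentile, so that a change on the spike-in scale is read against 0.12. Among the MI mice, replicate 2 was the lowest for 8 of the 9 genes, all but C5ar1, with a median deviation from the group mean of -0.65 against -0.33 over all probes. After 75th percentile scaling these deviations were -0.26 and 0.02. Among the sham-operated mice, replicate 4 lay below the group mean for all 9 genes, with a median deviation of -0.24 against -0.06 over all probes.

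**Figure D1:**
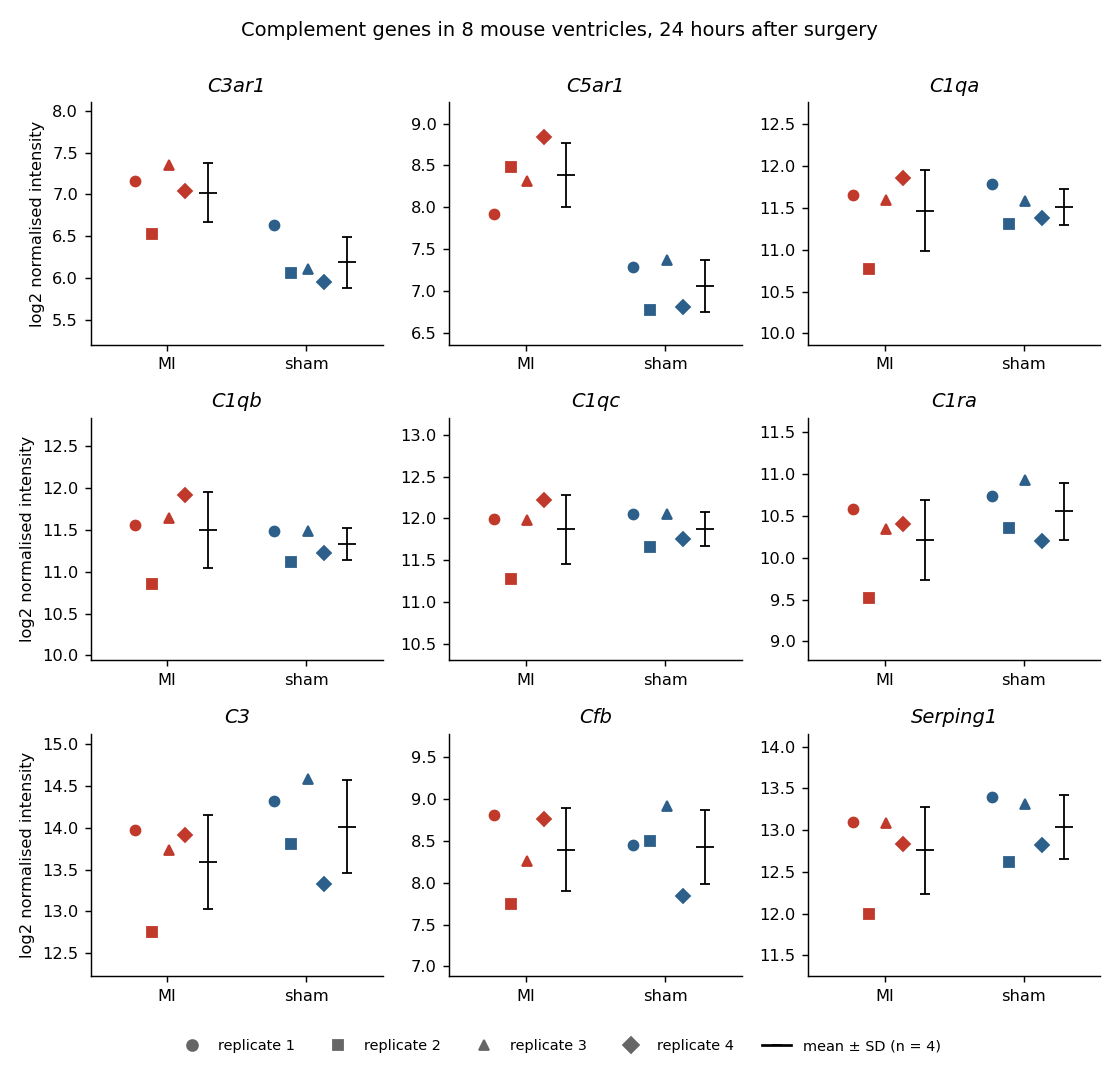
Log2 normalised intensity of the 9 complement genes in each mouse, with 1 panel per gene, MI mice in red and sham-operated mice in blue, symbols for the replicate number and bars for mean ± SD (n = 4). Every panel spans the same range of log2 units. The groups are apart only for C5ar1, and MI replicate 2 (square) is the lowest MI mouse in every panel but that of C5ar1.

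The receptors C5ar1 and C3ar1 were higher after MI, and no component or inhibitor among the 9 genes passed the test in either direction. A call needed a fold change over 2 and an adjusted p under 0.05 (limma, Benjamini-Hochberg over all retained probes). By that rule 1 of the 9 genes, C5ar1, was called higher and 0 were called lower, where 3.07% of all probes were called higher and 0.405% lower. At any fold, 2 of the 9 genes passed as higher, C5ar1 and C3ar1, and 0 as lower, beside 6.3% and 1.31% of all probes. At an unadjusted p under 0.05 the count of genes lower was also 0. The median change of the 9 genes was -0.03, and all but C5ar1, C3ar1 and C1qb had a negative change. After 75th percentile scaling 2 of 9 passed at any fold, again as higher, beside 8.99% of all probes as higher and 8.48% as lower. The median of the 9 genes was then -0.16.

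C5ar1 encodes the receptor for C5a, a strong attractant of neutrophils. Its log2 intensity was 7.92, 8.48, 8.32 and 8.84 in MI replicates 1 to 4 and 7.28, 6.77, 7.37 and 6.80 in sham replicates 1 to 4. All 4 MI values exceeded all 4 sham values, as for 8.46% of all probes. The means were 8.39 ± 0.38 (SD, n = 4) and 7.06 ± 0.31, a change of 1.33 (SE 0.23), which is 2.51-fold with a 95% confidence interval from 1.82 to 3.48 (limma, adjusted p = 0.000244). The exact two-sided permutation test over the mice gave p = 0.0286, the smallest that 4 against 4 mice allow. The change was between 1.18 and 1.49 when each mouse was left out in turn, and it was 1.17 among the 4 mice of the first row of arrays on the slide and 1.49 among those of the second row. An own refit of the spike-in model, with far larger additive constants, gave 0.70 with adjusted p = 0.0218 (limma), which is under 2-fold.

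C3ar1 encodes the receptor for C3a. Its log2 intensity was 7.17, 6.53, 7.35 and 7.04 in the MI mice and 6.64, 6.06, 6.10 and 5.95 in the sham-operated mice. The groups overlapped by 1 pair of mice, since MI replicate 2 lay below sham replicate 1. The change was 0.83 (SE 0.22), or 1.78-fold with a 95% confidence interval from 1.29 to 2.46 (limma, adjusted p = 0.0194), and the exact permutation p was 0.0571. After 75th percentile scaling the groups did not overlap, with a change of 0.81 (limma, adjusted p = 0.00725). The change was 0.50 in the first row of arrays and 1.17 in the second. When MI replicate 1, MI replicate 3 or sham replicate 4 was left out, the change was 0.79, 0.72 and 0.76, with adjusted p of 0.0594, 0.076 and 0.0684 (limma), so that it no longer passed at any fold. The refit gave 0.28 with adjusted p = 0.189.

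The 3 chains of C1q did not differ beyond the spread between mice. C1qa was 11.66, 10.77, 11.59 and 11.86 in the MI mice and 11.79, 11.31, 11.58 and 11.39 in the sham-operated mice. C1qb was 11.56, 10.85, 11.65 and 11.92 against 11.48, 11.11, 11.49 and 11.23. C1qc was 11.99, 11.28, 11.98 and 12.22 against 12.05, 11.66, 12.05 and 11.75. For each chain MI replicate 4 was the highest of all 8 mice and MI replicate 2 the lowest, so that the MI mice enclosed the sham-operated mice. The changes were -0.05 for C1qa, 0.17 for C1qb and -0.01 for C1qc, with 95% confidence intervals from -0.52 to 0.43, from -0.30 to 0.64 and from -0.47 to 0.45 (limma, adjusted p from 0.752 to 0.989). These intervals include changes of up to 1.35-fold, 1.56-fold and 1.37-fold upwards. Without MI replicate 2 the changes were 0.19, 0.38 and 0.19, and none passed.

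C3, the protein on which all pathways converge, was 13.97, 12.76, 13.73 and 13.91 in the MI mice and 14.32, 13.81, 14.59 and 13.33 in the sham-operated mice. Sham replicates 2 and 4 fell among the MI mice, and sham replicates 1 and 3 lay above them. The change of -0.42 had a 95% confidence interval from -0.98 to 0.14 (limma, adjusted p = 0.43). It was -0.14 without MI replicate 2, -0.23 without sham replicate 3 and -0.65 without sham replicate 4, and a second C3 probe gave -0.27. Cfb, the factor that forms the alternative convertase, was 8.81, 7.75, 8.26 and 8.77 after MI and 8.46, 8.50, 8.92 and 7.85 after sham operation. Here the groups overlapped throughout, and the change was -0.04 with a 95% confidence interval from -0.56 to 0.48 (limma, adjusted p = 0.959). Without sham replicate 3 the change of Cfb was 0.13.

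C1ra, the protease of the classical pathway, was 10.58, 9.52, 10.35 and 10.41 in the MI mice and 10.74, 10.36, 10.93 and 10.20 in the sham-operated mice. Its change was -0.34 (95% confidence interval -0.84 to 0.15, limma, adjusted p = 0.474), and a second probe gave -0.16. Serping1, the inhibitor of that protease, was 13.10, 12.00, 13.09 and 12.84 against 13.40, 12.62, 13.32 and 12.82. Its change was -0.28 (95% confidence interval -0.79 to 0.23, limma, adjusted p = 0.588), and a second probe gave -0.09. In both genes MI replicate 2 was lowest and the groups overlapped. After 75th percentile scaling C1ra changed by -0.46 and Serping1 by -0.40, with adjusted p of 0.066 and 0.0812 (limma), so that neither passed. On that scale every MI mouse lay below every sham-operated mouse for the brightest Serping1 probe (exact permutation p = 0.0286). The share of all probes with such groups on that scale was not counted, but 8.48% passed as lower at any fold. The second Serping1 probe changed by -0.20 there (limma, adjusted p = 0.406). Without MI replicate 2 the changes on the spike-in scale were -0.11 and -0.03.

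**Figure D2:**
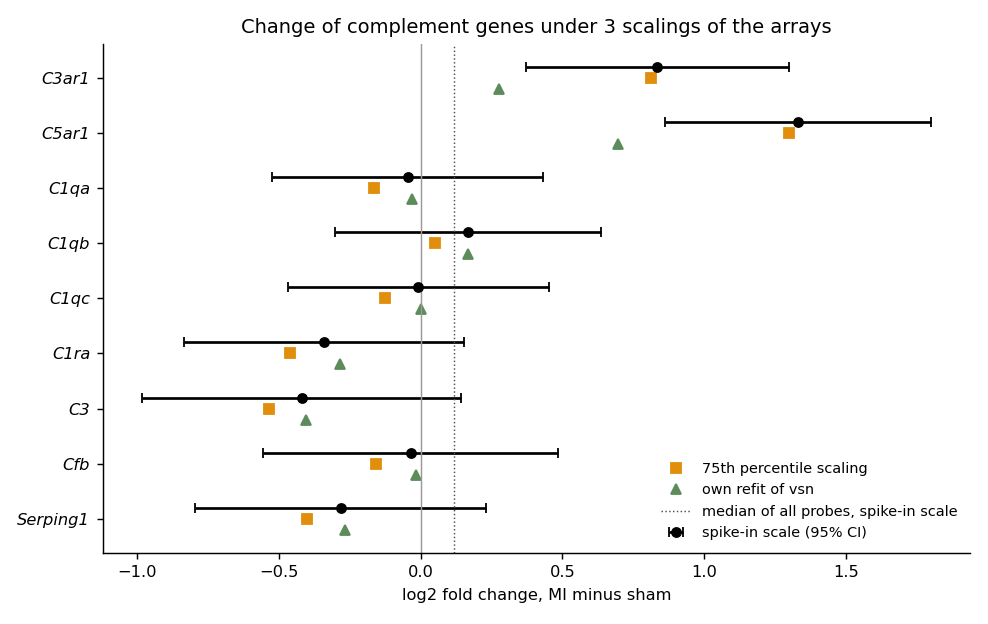
Log2 fold change, MI minus sham, of the 9 complement genes (n = 4 mice per group). Black circles are the spike-in scale with 95% confidence intervals, orange squares 75th percentile scaling, green triangles the refit of the spike-in model, and the dotted line the median of all probes at 0.12. Only the intervals of C3ar1 and C5ar1 lie above the dotted line, and the refit places C3ar1 at 0.28 and C5ar1 at 0.70.

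Whether the genes changed unequally was asked within each array, where the scale of the array cancels. For each mouse, the mean log2 intensity of the C1q chains was taken from that of another gene, 6 genes in all, and C5ar1 was compared with C3ar1 and C1ra with Serping1. The level of such a difference depends on the probes, and only its change between the groups is read. C5ar1 minus the C1q mean was -3.82, -2.49, -3.42 and -3.17 in the MI mice and -4.49, -4.58, -4.33 and -4.65 in the sham-operated mice. The groups did not overlap, and the change was 1.29 with a 95% confidence interval from 0.59 to 2.00. C3ar1 minus the C1q mean was -4.57, -4.44, -4.39 and -4.96 against -5.14, -5.30, -5.60 and -5.50, again without overlap, and the change was 0.80 with an interval from 0.39 to 1.20. Each had an exact permutation p of 0.0286, and after adjustment over the 8 differences p was 0.114 for both, so that 0 of 8 passed. Since 0.0286 is the smallest p that 4 against 4 mice allow, 2 such differences among 8 could not pass, whatever their size. The adjusted test therefore cannot decide whether these 2 changed. In this set 2 differences had an unadjusted p under 0.05. The refit reduced the change to 0.65 for C5ar1 and 0.23 for C3ar1, and normexp background correction gave 1.04 and 0.47.

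C1ra minus the C1q mean was -1.15, -1.45, -1.39 and -1.59 after MI and -1.03, -0.999, -0.78 and -1.26 after sham operation. The change was -0.38 with an interval from -0.71 to -0.05 and the groups overlapped (exact permutation p = 0.0571, adjusted 0.152). C3 changed against the C1q mean by -0.46 (interval -1.02 to 0.10), Serping1 by -0.32 (-0.70 to 0.06) and Cfb by -0.07 (-0.63 to 0.48). C5ar1 minus C3ar1 changed by 0.50 with an interval from -0.31 to 1.301 (exact permutation p = 0.2), an interval that spans 0. C1ra minus Serping1 changed by -0.06 with an interval from -0.35 to 0.23.

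**Figure D3:**
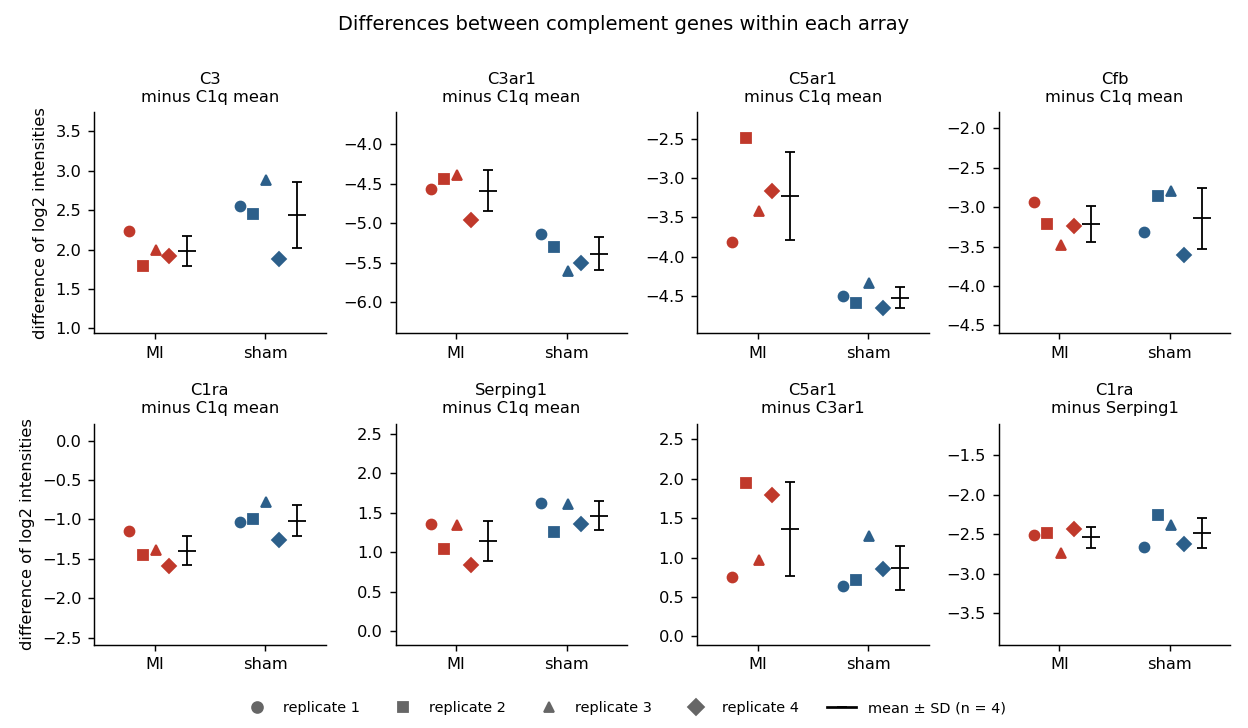
Differences of log2 intensities between complement genes within each array, with 1 panel per pair, MI mice in red, sham-operated mice in blue and bars for mean ± SD (n = 4). Every panel spans the same range. The 4 MI mice lie above the 4 sham-operated mice for C3ar1 and C5ar1 minus the C1q mean, and the groups overlap in the other panels.

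Other complement genes were taken from a list of 46, of which 44 had a RefSeq probe and 32 were tested. The remaining 12, among them Mbl1, Mbl2, C8a, C8b and C9, were well above background on fewer than 4 arrays. Of the 32, 3 were called higher, Hc, Itgax and Itgb2, and 0 lower (limma), beside 3.07% and 0.405% of all probes. At an unadjusted p under 0.05 the count lower by over 2-fold was also 0. At any fold 4 passed as higher, with Cfp, and 2 as lower, Colec11 and C8g, beside 6.3% and 1.31% of all probes. The median change was -0.04, and after 75th percentile scaling it was -0.17 with 3 higher and 6 lower at any fold, where 8.99% of all probes passed as higher and 8.48% as lower.

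Among 7 other receptors 2 were called, and their median change was 0.37. Itgax and Itgb2 encode the chains of complement receptor 4, an integrin of myeloid cells that binds a fragment of C3. Itgax was 7.81, 8.13, 8.39 and 9.05 in the MI mice and 7.03, 6.91, 6.75 and 6.42 in the sham-operated mice, a change of 1.56 (SE 0.24, limma, adjusted p = 6.13e-05). Itgb2 was 10.13, 10.17, 10.30 and 10.70 against 9.53, 8.57, 9.27 and 8.88, a change of 1.26 (SE 0.23, limma, adjusted p = 0.000458). For both integrin chains the MI values were all above the sham values. C5ar2, the second receptor for C5a and the neighbour of C5ar1, was 8.50, 8.54, 8.70 and 8.72 against 7.86, 7.86, 8.21 and 7.99. These groups did not overlap either, and the change of 0.64 (SE 0.20) had an adjusted p of 0.0507 (limma). Its second probe gave 0.67 with an adjusted p of 0.0404 (limma). Itgam, which pairs with Itgb2 in complement receptor 3, gave 0.14 on its brightest probe, whereas another probe gave 1.71 (limma, adjusted p = 5.13e-06) and 1 more gave 0.19, so that its probes disagreed.

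Of the alternative pathway this list held Cfp and Cfd, and both had a positive change, whereas Cfb, among the 9 genes, changed by -0.04. Cfp encodes properdin, which stabilizes the convertase and is made by leukocytes, and it was 11.65, 11.26, 11.74 and 12.10 in the MI mice against 11.30, 10.76, 10.79 and 10.56. The groups overlapped by 1 pair of mice, and the change was 0.83 (SE 0.23, limma, adjusted p = 0.0199). It did not pass without MI replicate 4 or sham replicate 4, with adjusted p of 0.0831 and 0.0812 (limma). Cfd, the protease that cleaves factor B, changed by 0.39 (SE 0.35) and did not pass. In the terminal pathway 3 of 7 genes were tested. Hc, which encodes C5, was 5.87, 6.36, 6.74 and 6.13 against 5.10, 4.68, 6.21 and 4.68, where sham replicate 3 fell among the MI mice and 1 of the 4 sham arrays was not well above background. Its change was 1.11 (SE 0.28, limma, adjusted p = 0.0109), but it was 0.23 with the refit (limma, adjusted p = 0.357) and 0.59 with normexp background correction (limma, adjusted p = 0.0617). It was 1.53 with 75th percentile scaling, 0.95 with the deposited log2 values and 1.08 without MI replicate 2, and did not pass in any of these (limma, adjusted p = 0.0743, 0.0847 and 0.0521). C8g, the small chain of C8, was 8.43, 7.44, 7.94 and 7.83 against 8.76, 8.44, 8.97 and 8.58, and every MI mouse lay below every sham-operated mouse, as for 2.7% of all probes. Its change was -0.77 (SE 0.23, limma, adjusted p = 0.0328), and a second probe gave 0.02. Leaving out MI replicate 2, 3 or 4 or sham replicate 1 or 3 raised the adjusted p to between 0.0528 and 0.0969 (limma).

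Of 10 tested genes of the classical and lectin pathways 0 were called, and their median change was -0.06. Colec11, a soluble lectin that starts the lectin pathway, was 10.95, 10.15, 10.66 and 10.88 in the MI mice and 11.75, 11.66 and 11.59 in sham replicates 1, 3 and 4. Sham replicate 2 was the lowest of its group but still above all MI mice, with a change of -0.84 (SE 0.23, limma, adjusted p = 0.02), although the adjusted p was 0.0573, 0.0542 and 0.052 when MI replicate 2, sham replicate 1 and sham replicate 3 were left out in turn. The protease genes C1s1 and C1s2 changed by -0.49 and -0.69 and did not pass, with an outlier spot that left sham replicate 4 out of the value of C1s2. After 75th percentile scaling both passed as lower, with changes of -0.62 and -0.79 (limma, adjusted p = 0.0293 and 0.0194). C2, the neighbour of Cfb, changed by 0.23 (limma, adjusted p = 0.634). Of 10 tested regulators 0 were called and 8 had a negative change, with a median of -0.31. The largest, -2.91 for Cd55b, came from sham replicate 4 alone at 18.67, against 6.72 to 6.85 in the other sham-operated mice and 6.53 to 7.26 in the MI mice, and a second probe gave 0.02.

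**Figure D4:**
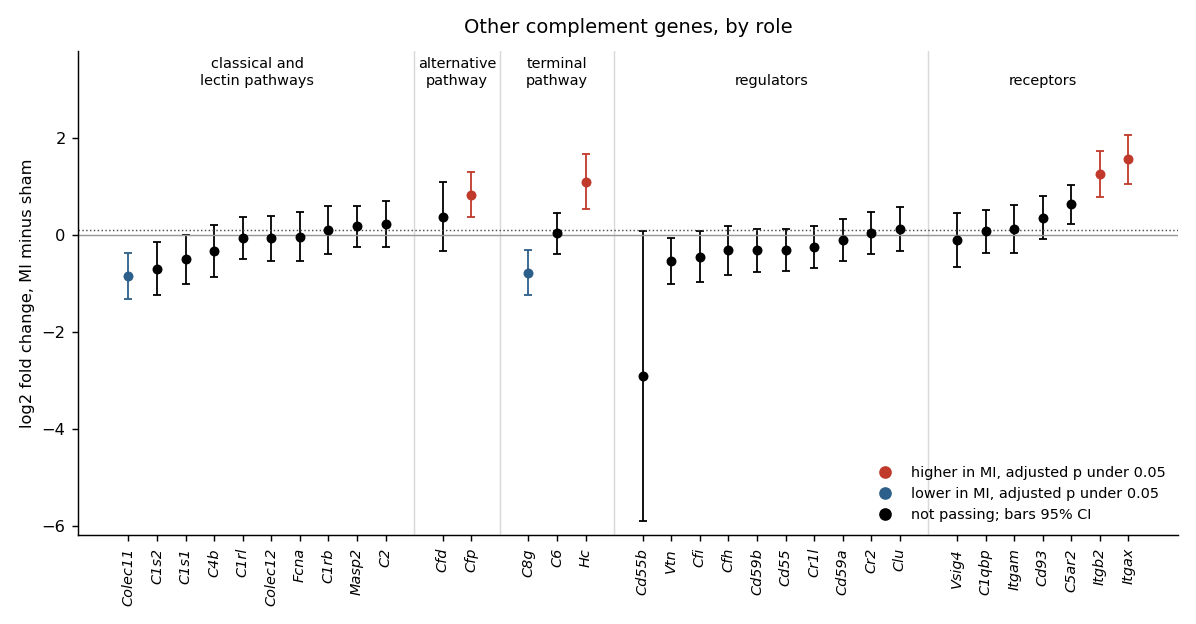
Log2 fold change, MI minus sham, of 32 other complement genes by role, with 95% confidence intervals from limma (n = 4 mice per group, except C1s2 with 3 sham-operated mice). Red marks genes higher and blue genes lower at adjusted p under 0.05, and the dotted line is the median of all probes at 0.12. Itgax at 1.56 and Itgb2 at 1.26 stand at the top of the receptors, and the wide interval of Cd55b rests on 1 mouse.

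Of the leukocyte lists, that of neutrophils had the most markers called. In bulk tissue more cells of a type and more RNA per cell cannot be told apart. Of 7 neutrophil markers 5 were called higher with a median change of 2.82, and their summed intensity was 292954 to 449929 in the MI mice and 76315 to 144256 in the sham-operated mice. S100a8, which encodes an abundant neutrophil protein, was 15.66, 16.21, 16.19 and 15.41 against 12.89, 12.83, 12.98 and 12.70 (change 3.02). On the spike-in scale MI replicate 4, the highest mouse for C5ar1 and Itgax, was the lowest MI mouse for S100a8 and the other 4 neutrophil markers that were called. For C5ar1 this order depended on the scale. After 75th percentile scaling MI replicate 2 was the highest for C5ar1, at 0.268 against 0.185 in MI replicate 4. MI replicate 2 was also the highest mouse for S100a8 on the spike-in scale. Every neutrophil marker was well above background on all arrays. Of 8 markers of monocytes and macrophages 3 were called higher, Cd14, Ccr2 and Ptprc, while 5 had a positive and 3 a negative change. The list had a median change of 0.51 and summed intensities of 14673 to 24175 against 9045 to 17604. Cd14 changed by 2.25 and Ccr2 by 1.15 (limma, adjusted p = 1.34e-06 and 0.00112). Ptprc, which encodes the leukocyte antigen CD45, was 7.77, 8.22, 8.19 and 8.40 against 7.21, 7.06, 7.15 and 6.75 (change 1.098, limma, adjusted p = 0.000906), and MI replicate 1 was the lowest MI mouse, as it was for C5ar1 and Itgax. Csf1r, the receptor for the macrophage growth factor, was 13.24, 12.57, 13.30 and 13.44 against 13.52, 13.12, 13.64 and 12.92 (change -0.16), and Adgre1 and Cx3cr1, also on that list, had changes of -0.24 and -0.64 and did not pass. The part of these cells in the change of the receptors was not tested.

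Of 6 markers of resident cardiac macrophages 0 were called, with a median change of 0.07 beside -0.05, 0.17 and -0.01 for the C1q chains. The 6 markers had changes from -0.17 to 0.78. Their summed intensity was 7240 to 13197 in the MI mice and 7068 to 14380 in the sham-operated mice. Of 6 fibroblast markers 0 were called, with a median of -0.41, beside -0.42 for C3, -0.34 for C1ra and -0.28 for Serping1. The changes of the 6 markers ran from -0.57 to 0.40, and only that of Tcf21 was positive. Summed intensity of the fibroblast markers was 55435 to 102419 against 79556 to 161995. The part of either cell type in these values was not tested. For hepatocytes, the main source of plasma C3 and factor B, Alb, Apoa1 and Fgb were below the detection filter and 0 of 2 tested markers were called. Serpina1a was 6.71, 9.31, 6.55 and 6.73 in the MI mice and 6.42, 7.62, 11.40 and 7.13 in the sham-operated mice. Ttr was likewise highest in sham replicate 3, at 8.44 against 6.13 to 7.04 in the other sham-operated mice. That mouse was also the highest for C3 and Cfb. By contrast, MI replicate 2 was the highest MI mouse for Serpina1a and Ttr, at 9.31 and 7.01, but the lowest of all 8 mice for C3 and Cfb. The part of hepatocyte RNA in these values was not tested. Cardiomyocyte markers, which define the tissue, were well above background on all arrays, and 0 of 7 were called, with a median of -0.07. Of the other markers, Acta2 was called among 4 of smooth muscle, and 0 of 6 of endothelium, 0 of 5 of mesothelium, 0 of 5 of adipocytes and 0 of 4 of lymphocytes were called.

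**Figure D5:**
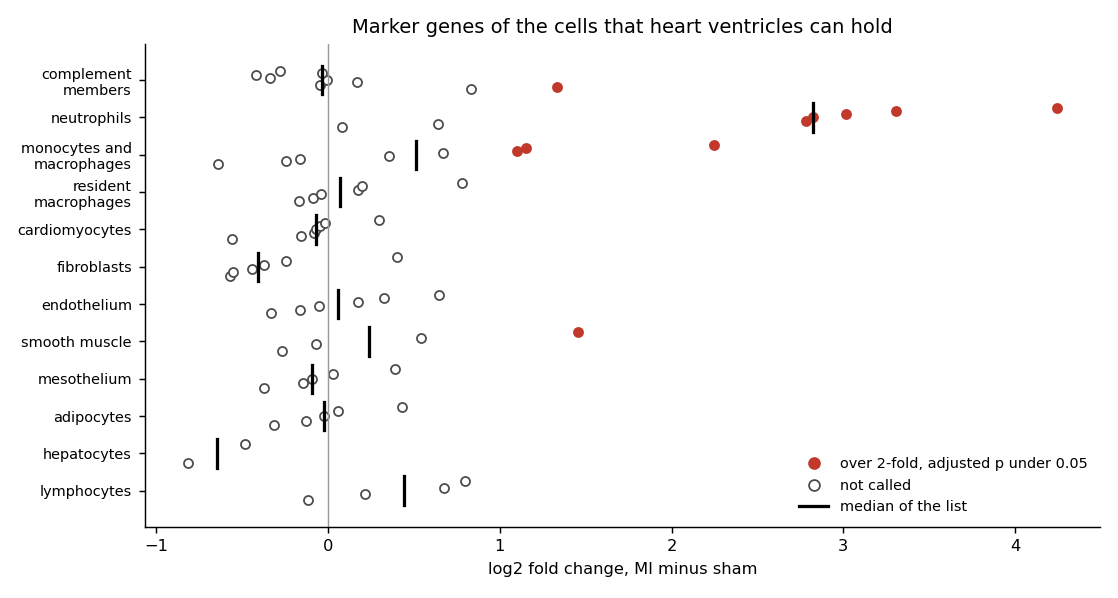
Log2 fold change, MI minus sham, of the 9 complement genes and of marker genes of 11 cell types, with 1 point per gene, red where the change was over 2-fold at adjusted p under 0.05 and a bar at the median. The neutrophil median lies at 2.82 and that of the complement genes at -0.03.

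The course of the genes over the single mice was compared by the deviation of each mouse from its group mean (Pearson r over 8 mice, with no test). These deviations share the array scale, so that the median r of all genes was 0.70 with the C1q mean and 0.68 with C3. On the spike-in scale the genes most like the C1q mean were Tcaf1 (r = 0.994), Abca9 (0.993), Slc47a1 (0.993), St6gal1 (0.993) and Ppm1k (0.991). Those most like C3 were Rep15 (0.992), Nr2f1 (0.991), Foxo6 (0.990), Arhgap42 (0.984) and Pcdh18 (0.984). Among the complement genes, C1ra followed C3 most closely, at rank 13 of 14044 genes (r = 0.978), and Cfb stood at rank 261 (0.925). C5ar1 followed neither, with r of 0.31 to both the C1q mean and C3. After 75th percentile scaling the median r of all genes was 0.01 with the C1q mean and -0.01 with C3. There the leading genes for the C1q mean were all different, headed by Alg14 (0.977), whereas Nr2f1 (0.978) and Foxo6 (0.972) still led for C3 and C1ra stood at rank 5 (0.959). On that scale C5ar1 had r of 0.20 with the C1q mean, at rank 5011 of 14042 genes, and -0.01 with C3.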

How the data were processed

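Gene expression was measured in 4 MI mice and 4 sham-operated mice, grouped by the sample labels, with 1-colour Agilent SurePrint G3 arrays. Per the file headers, the deposited intensity of a spot is the processed signal of Feature Extraction 11.0.1.1, after local background subtraction. The authors' deposited log2 values came from spots well above background, normalized between arrays on spike-in probes with limma and vsn. The scale and the additive constant of each array (3.16 to 19.6) were recovered by comparing them with the processed signals, with a largest misfit of 5.02e-09, and were applied here to all spots. This differs from fitting vsn anew (234 spots of 7 spike-in probes, constants 165.9 to 256.1), which holds back changes of dim probes and was kept as an alternative. Outlier spots were left out and spots of a probe averaged. Of 55681 probes, 34038 well above background on at least 4 of 8 arrays were retained, of which 19698 had a symbol through the RefSeq accession (GRCm38.p6).

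Groups were compared with limma 3.58.1 (R 4.3.3) without covariates, with Benjamini-Hochberg adjustment over all retained probes, and single values with an exact two-sided permutation test (70 arrangements, smallest p 0.0286). Python 3.11.15, numpy 2.4.6, scipy 1.17.1, pandas 2.3.3 and matplotlib 3.10.9 were used. Confidence intervals come from limma for single genes and from the pooled spread of both groups for differences within an array. The procedures were tested on simulated data. The number of arrays limits the precision.

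The genes and lists were chosen with earlier results of these data known. Beside the 9 genes, the text names other complement genes that were called, up to 3 in each direction with the largest change among those not called, the 5 genes most like the C1q mean and C3, and Ptprc, Csf1r and S100a8. Chosen after their values were seen were C1s1, C1s2, C2, Itgam, Adgre1, Cx3cr1, Cd14, Ccr2, Tcf21, Serpina1a, Ttr, Acta2 and the genes below detection. So were the fits within array rows, the alternatives for single genes other than the 9, and the pairs of C1q chains. Alternatives covered scaling, background correction, detection filter, probe choice, test, blocks and single mice.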

Additional observations from a re-analysis of the deposited data

Results flagged for a closer look

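The Cd55b intensity of sham replicate 4 lay far from the other sham-operated mice, at 18.669 on the log2 scale against 6.719 to 6.849, with a gap of 0.99 of the whole range. It was the only extreme value among 42 groups of 4 mice, for 21 of the named genes in both conditions. Chance alone marks about 5% of groups in this way. Cd55b encodes a membrane regulator that breaks up the C3 convertase. The change of -2.91 given for it above rests on that single mouse, and its cause was not tested.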

How the results depend on the processing

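C5ar1 passed as higher at any fold in 20 of 21 alternatives, all but the unmoderated t-test (adjusted p = 0.0627), with changes of 0.70 to 1.49. Probes called numbered 1184, against 333 with the own refit of vsn, 537 with normexp and 578 with the unmoderated t-test. Higher calls were 88.3% of them, or 1046 against 138 lower, but 73.1% (1058 against 389) with 75th percentile scaling and 69.0% (975 against 438) with quantile normalization. The significance analysis of microarrays named in the methods called 1030 higher and 133 lower. Of the 9 genes, 0 were called with the refit or the t-test, and at any fold 1 passed with the refit, 1 without a detection filter and 0 with the t-test. Of other complement genes, 1 was called with the refit and 0 with the t-test, and at any fold 6 became 3 with the refit, 12 with normexp, 2 without a filter and 1 with the t-test. Leaving out each mouse gave 1046 to 1461 probes, 1 to 2 of the 9 genes at any fold, and 2 to 4 called and 4 to 7 passing of the others. Small changes that did not pass turned sign without single mice, with ranges of -0.175 to 0.188 for C1qa, -0.127 to 0.189 for C1qc, -0.23 to 0.18 for Cfb, -0.229 to 0.044 for Cfb minus the C1q mean and -0.118 to 0.015 for C1ra minus Serping1, and C1qc was 0.002 with the refit. The causes were not tested. Same-numbered mice had correlations of deviations of 0.24, 0.29, 0.14 and 0.01, and MI replicate 3 correlated best with sham replicate 1 (0.23), so that a pairing by number was neither given by the labels nor settled by these values. The replicate block gave 1155 probes called, but at any fold 3945 higher and 950 lower in place of 2144 and 446, and 9 other complement genes in place of 6. It left the counts of the 9 genes at 1 and 2, with a C3ar1 adjusted p of 0.0176 (limma).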

Other observations

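Among pairs of C1q chains, looked at after their values were seen, C1qb minus C1qc was -0.43, -0.42, -0.33 and -0.30 in the MI mice and -0.56, -0.55, -0.56 and -0.52 in the sham-operated mice. The groups did not overlap, with a difference of 0.18 between the group means of -0.37 ± 0.07 and -0.55 ± 0.02 (SD, n = 4, exact two-sided permutation p = 0.0286, not adjusted). C1qb minus C1qa differed by 0.21 (exact permutation p = 0.0571) and C1qc minus C1qa by 0.04 (exact permutation p = 0.514). The values were nearly the same after 75th percentile scaling, at 0.18, 0.21 and 0.04. The difference of 0.18 between C1qb and C1qc corresponds to a small shift of 1 probe against another, and only 1 probe per chain was retained.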
